A study of Rattus norvegicus with 6 samples.

Results

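Markers of nucleus pulposus and notochordal identity were followed in primary cells of the rat nucleus pulposus, the soft centre of the intervertebral disc. The set holds 10 genes chosen by name: the keratins Krt8, Krt18 and Krt19, the surface and lectin genes Cd24 and Lgals3, the enzyme gene Glul, the protease inhibitor A2m, the transcription factors Pax1 and Noto, and the channel subunit Bsnd. Of these, 7 had a row among the 19088 gene rows used here, and 6 had enough counts to be tested. Krt19, Noto and Bsnd carried no row under those names and were not analysed here. Poly(A) RNA was sequenced in 6 samples of cells from rats of strain SD. In the rShh group, 3 samples had received recombinant Sonic hedgehog (rShh, dissolved in DMSO), the ligand of the Hedgehog pathway, for 48 h at 200 ng/ml, and in the Control group 3 samples had received the solvent DMSO alone for 48 h. All 6 were grown in DMEM/F12 with serum.

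The nucleus pulposus of rodents descends from the notochord, the embryonic rod that secretes Sonic hedgehog and patterns the spine. Its large vacuolated notochordal cells are known for simple epithelial keratins, which assemble as pairs of a type II chain (Krt8) with a type I chain (Krt18 or Krt19), and for surface Cd24 and galectin-3, the product of Lgals3. Such markers are used to tell these cells from the smaller chondrocyte-like cells of the mature disc and from fibroblastic cells of the surrounding annulus.

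Of the 6 members tested, Krt8, Cd24, Lgals3, A2m and Pax1 were lower in the rShh group and Glul was higher (edgeR adjusted p below 0.05). Among all 14775 genes tested, 60.3% passed that threshold, with 28.8% lower and 31.5% higher in the rShh group. For each of the 6 tested members the 3 rShh libraries lay on one side of the 3 Control libraries. The same held for 68.1% of all genes tested. A2m had the largest change of the 6 and Pax1 the smallest.

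Library totals were 65116846 to 70031072 counts in the rShh group and 50758195 to 55501124 in the Control group, and mitochondrial transcripts took 3.25% to 3.36% of them in the rShh group and 1.97% to 2.28% in the Control group. Transcripts of Y-linked genes separated the groups. Eif2s3y had 3868 to 4159 counts in the rShh libraries and 0 in the 3 Control libraries, which put it at least 1064-fold higher against a floor of 3 counts per Control library. The labels give no sex and are silent on whether replicates were separate animals or cultures. Treatment and this difference cannot be told apart in any comparison here, and the p-values reflect variation among these 6 samples only, some of it perhaps technical. In bulk RNA, fewer cells of a type and less RNA per cell cannot be told apart either.

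Promoter sequences are shown for the neighbouring keratin genes Krt8 and Krt18, since Krt8 was well above the limit of detection in every library and Krt18 was at it, and for Cd24 and Pax1, the lowered members with a match to a motif besides Krt8. They are the 250 bases before the annotated gene start in RefSeq (build GRCr8), 5′ to 3′ in the direction of the gene, at chr7:135010340-135010589 on the minus strand for Krt8 and at chr7:135035918-135036167, chr20:48656227-48656476 and chr3:155245279-155245528 on the plus strand for Krt18, Cd24 and Pax1. Capitals mark exact matches on either strand to 3 motifs: GACCACCCA, bound by the GLI factors of Hedgehog signalling, the TATA box TATAAA, and ACGTG, the core of the hypoxia response element.
Krt8: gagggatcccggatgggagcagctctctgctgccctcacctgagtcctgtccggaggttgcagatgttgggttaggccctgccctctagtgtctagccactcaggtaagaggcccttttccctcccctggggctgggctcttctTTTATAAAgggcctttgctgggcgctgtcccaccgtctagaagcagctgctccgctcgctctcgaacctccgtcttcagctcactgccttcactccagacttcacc
Krt18: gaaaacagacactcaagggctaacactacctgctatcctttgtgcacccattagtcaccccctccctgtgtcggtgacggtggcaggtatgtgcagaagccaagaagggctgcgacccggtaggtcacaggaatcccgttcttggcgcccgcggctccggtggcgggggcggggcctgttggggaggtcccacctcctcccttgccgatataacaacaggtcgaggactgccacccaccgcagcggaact
Cd24: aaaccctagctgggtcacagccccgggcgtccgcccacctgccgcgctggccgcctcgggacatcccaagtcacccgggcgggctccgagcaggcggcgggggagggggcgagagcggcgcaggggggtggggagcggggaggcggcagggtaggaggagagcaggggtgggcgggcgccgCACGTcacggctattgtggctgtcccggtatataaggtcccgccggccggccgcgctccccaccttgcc
Pax1: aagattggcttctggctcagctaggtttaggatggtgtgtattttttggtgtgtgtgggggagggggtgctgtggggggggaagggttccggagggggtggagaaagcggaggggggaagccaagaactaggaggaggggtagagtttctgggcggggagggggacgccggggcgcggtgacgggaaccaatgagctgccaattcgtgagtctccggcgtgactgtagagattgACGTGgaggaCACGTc

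The table held 8 such windows for 7 members, Glul with a pair of them, and none for Lgals3, A2m or Krt19. GACCACCCA was in 0 of the 8 windows and in 0.338% of all 33469 promoter windows of that length. TATAAA was in 1 of the 8, that of Krt8, where both strands match in overlapping bases from 106 to 99 before the start. It was in 12.9% of all windows. ACGTG was in 2 of the 8, those of Cd24 and Pax1, and in 16.6% of all windows. In Pax1 it stood on both strands, at 16 to 12 and at 6 to 2 bases before the start. A match describes letters in these windows and says nothing of binding.

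Krt8, the type II keratin of simple epithelia and notochordal cells, was lower in the rShh group. Its row spans chr7:143596511-143603803 (minus strand) in the coordinates of the authors' files. It had 118, 156 and 148 counts in the rShh libraries and 675, 672 and 683 counts in the Control libraries. Its level was 0.768, 0.975 and 0.972 FPKM in the rShh libraries and 5.18, 5.34 and 5.74 FPKM in the Control libraries. Every rShh library was below every Control library although the rShh libraries were deeper. The mean was 0.905 ± 0.119 FPKM in the rShh group and 5.42 ± 0.287 FPKM in the Control group (SD, n = 3 each). The log2 change was -2.58 (SE 0.15, edgeR adjusted p = 2.61e-07), and 177 of the 14775 genes tested, Krt8 included, had a change as low or lower. Nearly all of its counts fell on the 9-exon transcript of 1724 bases, with 117 to 155 counts in the rShh libraries and 671 to 682 in the Control libraries. The single-exon transcript of 628 bases had 1 or 2 counts in each library.

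Krt18, the type I partner of Krt8, was at the limit of detection in both groups. Its row spans chr7:143629455-143633131 (plus strand), 25651 bases from Krt8. It had 0, 0 and 4 counts in the rShh libraries and 9, 0 and 0 counts in the Control libraries. The 0 counts in 4 of the 6 libraries allow up to 3 counts each, or 0.0431 to 0.0591 CPM (counts scaled to library size). Krt18 did not pass the filter on low counts and no difference was detectable at this depth.

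**Figure D1:**
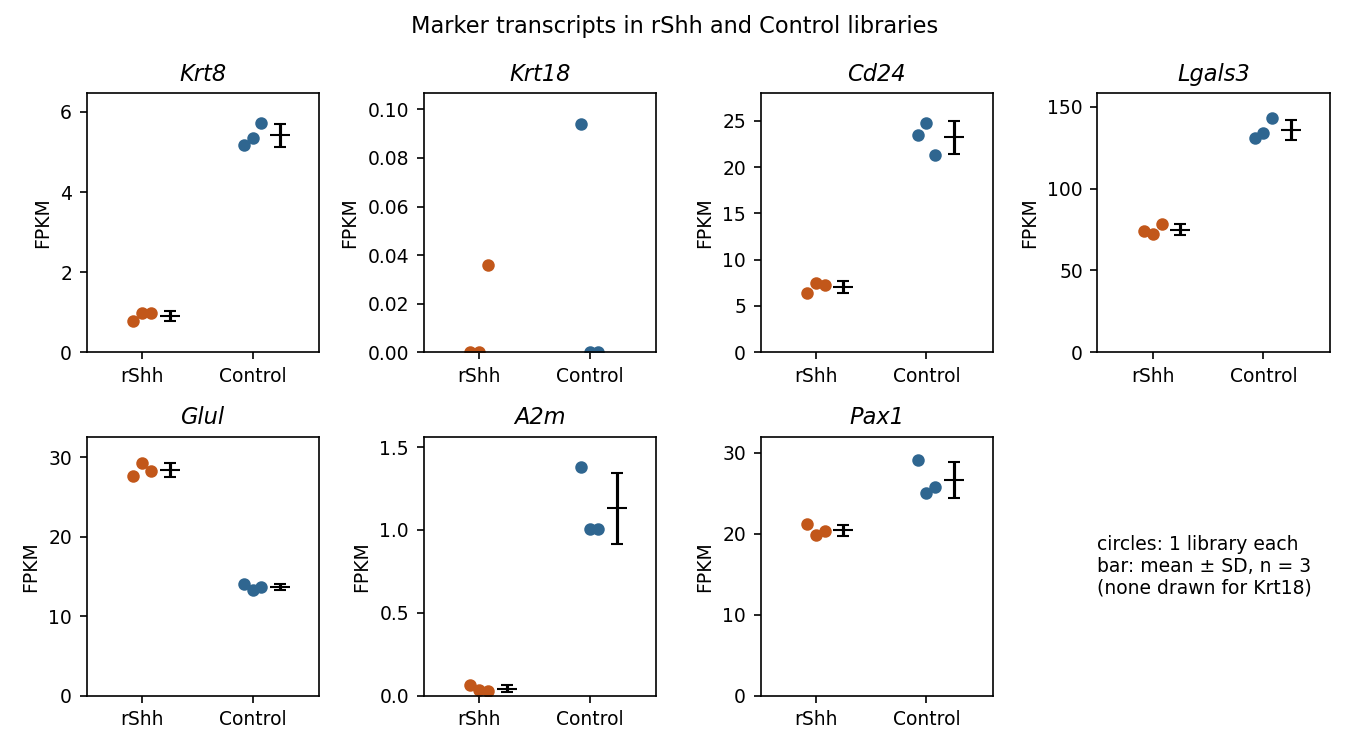
Level of the 7 members with a row, in FPKM on linear axes that start at 0, with 1 circle per library and the mean ± SD beside it except for Krt18. The rShh libraries lie below the Control libraries for Krt8, Cd24, Lgals3, A2m and Pax1 and above them for Glul, and Krt18 stays under 0.1 FPKM in every library.

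Since Krt8 needs a type I chain to form filaments, every row named as a numbered keratin was read, a choice made after the Krt18 counts were seen. There were 7 rows of type II and 7 of type I. Krt7, a type II keratin of ducts and simple epithelia, was the most abundant keratin at 12.6 ± 1.33 FPKM in the rShh group and 10.1 ± 2.22 FPKM in the Control group (SD, n = 3 each), and its groups overlapped (edgeR adjusted p = 0.118). Krt79 was higher in the rShh group, at 5.40 ± 0.314 FPKM against 1.27 ± 0.422 FPKM in the Control group. Krt80 was lower, at 1.31 ± 0.0284 FPKM in the rShh group and 2.63 ± 0.274 FPKM in the Control group (edgeR adjusted p = 2.81e-05 for Krt79 and 9.40e-05 for Krt80). Krt8 thus made up 3.87% to 5.17% of the summed type II FPKM in the rShh libraries and 25.7% to 31.4% in the Control libraries. Keratins of a type are similar in sequence and may have shared reads, which leaves the value of each uncertain.

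Type I keratins were scarce in both groups. Their summed level was 2.34, 2.58 and 2.20 FPKM in the rShh libraries and 0.850, 0.575 and 0.414 FPKM in the Control libraries, while summed type II levels were 18.8 to 21.9 FPKM in the rShh libraries and 16.5 to 21.1 FPKM in the Control libraries. The type II to type I ratio was 8.48 to 8.56 in the rShh libraries and 19.4 to 51.1 in the Control libraries. These ranges did not overlap, but the Control ratios divide by small type I sums. Krt23 had 96, 117 and 81 counts in the rShh libraries and 0 in the 3 Control libraries, at least 26.2-fold higher against the mean floor of 3 counts per Control library (edgeR adjusted p = 3.49e-05). Krt39 had 83, 108 and 79 counts in the rShh libraries and 10, 2 and 0 in the Control libraries. Krt10, a keratin of differentiated epidermis, was at 0.513 ± 0.0509 FPKM in the rShh group and 0.505 ± 0.132 FPKM in the Control group and did not pass the test (edgeR adjusted p = 0.981). Krt10 made up most of the type I sum in each Control library, at 0.637, 0.504 and 0.374 FPKM. The rShh sums also held Krt23 and Krt39, at means of 0.970 and 0.781 FPKM. Among the 10 other keratins listed, 4 were tested, with 1 higher, 1 lower and a median log2 change of 0.15, where the median of all genes tested was 0.01. That list leaves out Krt79 and Krt39. Of all type I rows, 3 were tested, with 2 higher and 0 lower. Of all type II rows, Krt8 included, 4 were tested, with 1 higher and 2 lower.

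**Figure D2:**
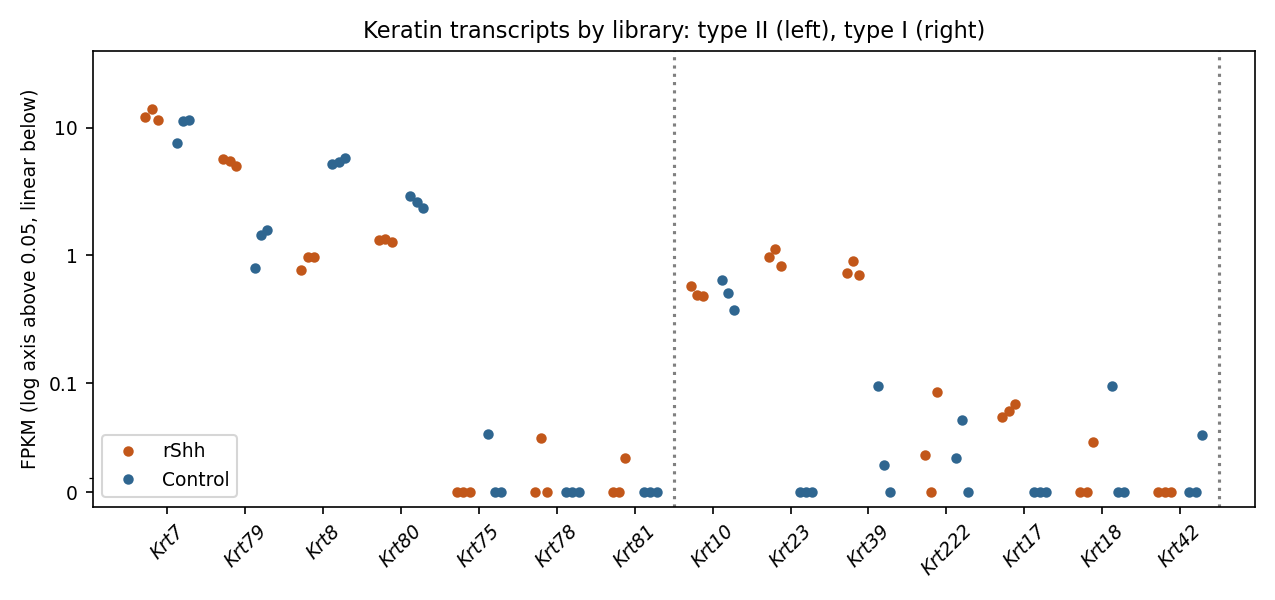
Level of each keratin row by library in FPKM, on an axis that is logarithmic above 0.05 and linear below, with type II genes on the left and type I genes on the right and rShh left of Control for each gene. Krt8 and Krt80 sit lower in the rShh libraries, Krt79, Krt23 and Krt39 sit higher, and Krt18 stays near 0 in both groups.

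Genes that tie keratins to the cell edge went both ways. Among the 14 listed keratin linkers and epithelial junction genes, 7 were tested, with 1 higher, 3 lower and a median log2 change of -0.41. Plec, which links intermediate filaments to adhesion sites, was at 23.9 ± 1.17 FPKM in the rShh group and 31.5 ± 1.92 FPKM in the Control group (edgeR adjusted p = 0.000183). Jup, plakoglobin of desmosomes and adherens junctions, was at 12.1 ± 0.403 FPKM in the rShh group and 17.9 ± 2.13 FPKM in the Control group (edgeR adjusted p = 0.000253). Ppl, the 1 higher gene, had 172, 188 and 244 counts in the rShh libraries and 33, 66 and 40 in the Control libraries. Its log2 change of 1.80 was larger in size than those of Plec (-0.41) and Jup (-0.58) (edgeR adjusted p = 0.000738 for Ppl). The epithelial adhesion genes Cdh1 and Epcam and the epithelial regulators Esrp1 and Grhl2 had too few counts to be tested, with mean levels under 0.05 FPKM in both groups.

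Cd24, a small glycosylated surface protein used to sort nucleus pulposus cells, was lower in the rShh group. The row is at chr20:48335540-48340846 (plus strand). It had 914, 1127 and 1042 counts in the rShh libraries and 2898, 2950 and 2403 counts in the Control libraries. Its level was 6.34, 7.47 and 7.29 FPKM in the rShh libraries and 23.5, 24.8 and 21.3 FPKM in the Control libraries. The lowest Control library had more than every rShh library. The CPM was 3.32-fold lower in the rShh group (log2 change -1.73, SE 0.09, edgeR adjusted p = 1.25e-07). Processed copies of this gene are known in other mammals, and any in the rat could share its reads.

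Lgals3, the sugar-binding lectin galectin-3, was the most abundant member in both groups and was also lower in the rShh group. Plus-strand coordinates are chr15:24141651-24165537. It had 6251, 6393 and 6603 counts in the rShh libraries and 9488, 9375 and 9466 counts in the Control libraries. Its level was 73.8, 72.1 and 78.5 FPKM in the rShh libraries and 131, 134 and 143 FPKM in the Control libraries. The groups were clearly apart, and the spread within each was small. The log2 change was -0.87 (SE 0.06, edgeR adjusted p = 1.34e-06), a CPM 1.83-fold lower in the rShh group. The authors' isoform table gives its 6-exon transcript of 948 bases a higher level, 85.7 ± 3.82 FPKM in the rShh group and 156 ± 7.18 FPKM in the Control group, from the same counts.

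Lgals3 and its relatives did not share a direction. Of the list of 10 other galectins and galectin-related genes, 6 were tested, with 4 higher, 1 lower and a median log2 change of 0.43. Lgals1, the most abundant of them, was at 1555 ± 46.6 FPKM in the rShh group and 1900.0 ± 120.7 FPKM in the Control group (log2 change -0.30, edgeR adjusted p = 0.00132). Lgals9, a tandem-repeat galectin of immune regulation, had 203, 210 and 173 counts in the rShh libraries and 0, 3 and 0 in the Control libraries (edgeR adjusted p = 6.27e-06). Lgalsl was at 23.5 ± 1.18 FPKM in the rShh group and 9.54 ± 0.794 FPKM in the Control group (edgeR adjusted p = 2.65e-07).

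Glul, glutamine synthetase, which makes glutamine from glutamate and ammonia, was the member that rose. The row is at chr13:71331052-71340229 (plus strand). It had 5354, 5946 and 5422 counts in the rShh libraries and 2333, 2123 and 2073 counts in the Control libraries. Its level was 27.6, 29.3 and 28.2 FPKM in the rShh libraries and 14.0, 13.2 and 13.7 FPKM in the Control libraries. The log2 change was 1.05 (SE 0.06, edgeR adjusted p = 2.47e-07), a 2.07-fold higher CPM. A change as high or higher was found in 14.2% of the genes tested.

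Other genes of glutamine use went both ways. All 10 of the list were tested, with 5 higher, 4 lower and a median log2 change of 0.22. The glutaminase Gls2, which runs the opposite reaction to Glul, was at 15.4 ± 0.361 FPKM in the rShh group and 6.57 ± 1.34 FPKM in the Control group (edgeR adjusted p = 2.26e-05). The amino acid importer Slc38a1 was also higher, at 48.2 ± 1.52 FPKM in the rShh group and 29.7 ± 0.690 FPKM in the Control group (edgeR adjusted p = 4.05e-06). Slc7a5, which exchanges glutamine for large neutral amino acids, was lower, at 28.7 ± 0.409 FPKM in the rShh group and 75.5 ± 1.45 FPKM in the Control group. Asns, which uses glutamine to make asparagine, was at 59.3 ± 2.15 FPKM in the rShh group and 89.3 ± 2.46 FPKM in the Control group (edgeR adjusted p = 1.32e-08 for Slc7a5 and 3.34e-06 for Asns).

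A2m, the secreted protease inhibitor alpha-2-macroglobulin, had the deepest fall of the members. Plus-strand coordinates are chr4:154309426-154359137. It had 24, 12 and 10 counts in the rShh libraries and 422, 297 and 282 counts in the Control libraries. Its level was 0.0657, 0.0315 and 0.0281 FPKM in the rShh libraries and 1.38, 1.01 and 1.01 FPKM in the Control libraries. The log2 change was -4.73 (SE 0.33, edgeR adjusted p = 1.27e-06), and 42 of the genes tested, A2m included, had a change as low or lower. It passed the filter on low counts through the 3 Control libraries and 2 of the 3 rShh libraries. On the log2(FPKM + 1) scale, which shrinks low values, its change was -1.03.

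Lrp1, the endocytic receptor that clears alpha-2-macroglobulin bound to proteases, was lower too, at 90.2 ± 3.78 FPKM in the rShh group and 134 ± 2.64 FPKM in the Control group (edgeR adjusted p = 1.57e-06). C3, the central complement component and a structural relative of A2m, was higher, at 8.14 ± 0.950 FPKM in the rShh group and 2.62 ± 0.718 FPKM in the Control group (edgeR adjusted p = 1.51e-05). In the list of 9 relatives and receptors, 5 were tested, with 1 higher, 2 lower and a median log2 change of -0.24. Pzp, the closest relative listed, had too few counts to be tested.

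Pax1, a paired-box transcription factor of the sclerotome, the embryonic source of vertebrae and annulus, had the smallest change. The row is at chr3:141577504-141589849 (plus strand). It had 4652, 4567 and 4443 counts in the rShh libraries and 5493, 4553 and 4438 counts in the Control libraries. Its level was 21.1, 19.8 and 20.3 FPKM in the rShh libraries and 29.1, 25.01 and 25.7 FPKM in the Control libraries. Raw counts overlapped between the groups, while levels scaled to library size did not. The log2 change was -0.39 (SE 0.07, edgeR adjusted p = 0.000762), and 26.6% of the genes tested had a change as low or lower.

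Its paralog Pax9 was higher, at 3.96 ± 0.370 FPKM in the rShh group and 2.24 ± 0.291 FPKM in the Control group (edgeR adjusted p = 0.00327). Among 10 sclerotome genes, 8 were tested, with 4 higher, 1 lower and a median log2 change of 0.52. Meox2 was at 16.0 ± 0.340 FPKM in the rShh group and 5.30 ± 1.18 FPKM in the Control group (edgeR adjusted p = 3.93e-06). Nkx3-2, a repressor downstream of Pax1 and Pax9 in mouse sclerotome, was at 4.31 ± 0.632 FPKM in the rShh group and 4.29 ± 0.855 FPKM in the Control group (edgeR adjusted p = 0.981). Of the list of 6 partner channels and transporters kept for Bsnd, the kidney and inner-ear channel subunit barttin, 2 were tested and 1, the chloride importer Slc12a2, was higher (log2 change 0.27, edgeR adjusted p = 0.0154). That call was lost without rShh replicate 2, rShh replicate 3 or Control replicate 2 (edgeR adjusted p = 0.0512, 0.0525 and 0.0527), and with limma on log2(FPKM + 1) without a filter (adjusted p = 0.0554).

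The order of levels per length differed between the groups. In the rShh group the means ran from Lgals3 (74.8 FPKM) through Glul (28.4), Pax1 (20.4), Cd24 (7.04), Krt8 (0.905) and A2m (0.0418) to Krt18 (0.0119). In the Control group they ran from Lgals3 (136 FPKM) through Pax1 (26.6), Cd24 (23.2), Glul (13.7), Krt8 (5.42) and A2m (1.13) to Krt18 (0.0313). The libraries of Pax1 and Cd24 almost met in the Control group, at 25.01 FPKM for the lowest Pax1 value and 24.8 for the highest Cd24 value, and those of A2m and Krt18 overlapped in the rShh group. Neighbours elsewhere in either order did not overlap. Krt8 exceeded 37.1% of all gene rows in mean FPKM in the rShh group and 61.9% in the Control group, and Lgals3 exceeded 95.3% in the rShh group and 97.5% in the Control group.

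The isoform table gave the same directions. Of 13699 isoform rows tested with limma on log2(FPKM + 1), 56.5% passed an adjusted p of 0.05 (28.8% higher and 27.7% lower), and so did the 5 member transcripts above the minimum of 1 FPKM. Their log2 changes on that scale were -1.82 for Krt8, -1.59 for Cd24, -0.85 for Lgals3, -0.36 for Pax1 and 1.004 for Glul. Each member other than Krt8 had a single transcript row, so the isoforms add no independent counts.

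**Figure D3:**
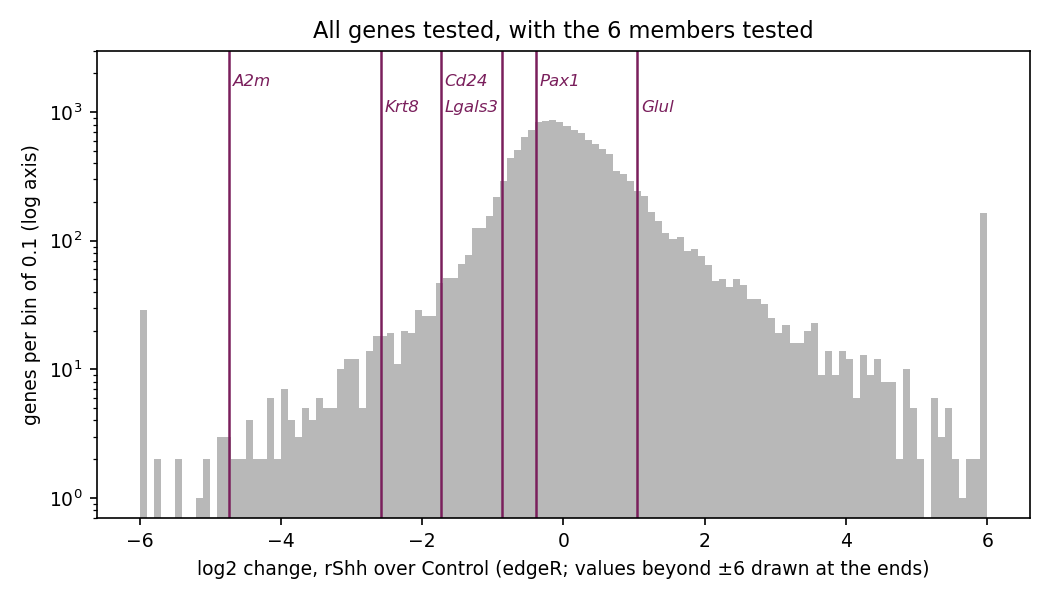
Distribution of the edgeR log2 change, rShh over Control, over the 14775 genes tested, with the number of genes per bin on a log axis and lines at the 6 tested members and values beyond 6 in size drawn at the ends. A2m and Krt8 lie in the lower tail, while Pax1 lies inside the bulk of the distribution and Glul on its upper flank.

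Other markers of the nucleus pulposus and notochord moved in both directions. Of the list of 25, all 18 with a row were tested, with 7 higher, 4 lower, 7 that did not pass and a median log2 change of 0.27. Foxa1 and Foxa2, transcription factors of the notochord, were both lower. Foxa1 had 26, 16 and 39 counts in the rShh libraries and 77, 85 and 107 in the Control libraries (edgeR adjusted p = 0.00227). Foxa2 had 48, 37 and 32 counts in the rShh libraries and 109, 136 and 92 in the Control libraries (edgeR adjusted p = 0.000867). Acan, the core protein of the disc proteoglycan aggrecan, was higher, at 71.0 ± 1.11 FPKM in the rShh group and 6.80 ± 0.905 FPKM in the Control group. Hif1a, an oxygen-regulated transcription factor, was at 53.5 ± 2.75 FPKM in the rShh group and 16.5 ± 1.70 FPKM in the Control group. The glucose transporter Slc2a1 was at 62.7 ± 5.51 FPKM in the rShh group and 28.6 ± 1.05 FPKM in the Control group (edgeR adjusted p = 2.82e-09 for Acan, 3.72e-08 for Hif1a and 3.82e-07 for Slc2a1).

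**Figure D4:**
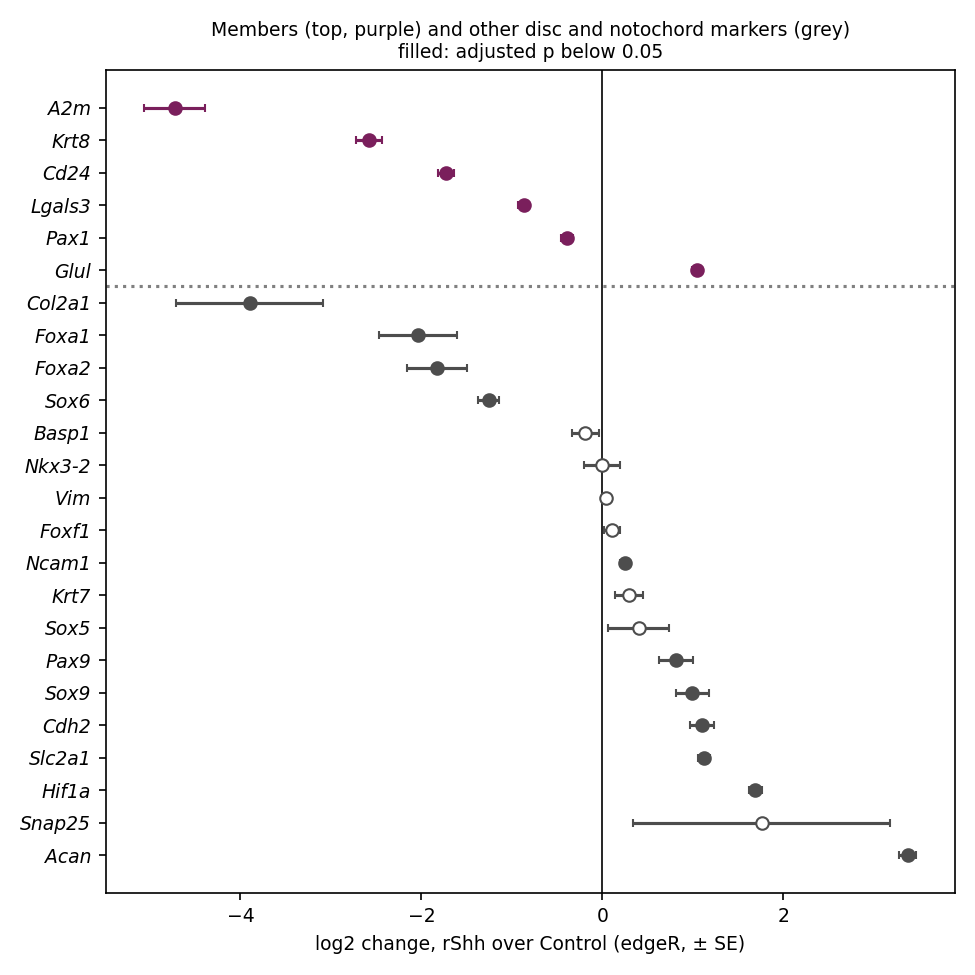
The edgeR log2 change, rShh over Control, with its SE for the 6 tested members (purple) and the 18 tested genes of the list of other markers (grey), with filled points for an adjusted p below 0.05. Members other than Glul lie left of 0, and the other markers spread from -3.90 for Col2a1 to 3.37 for Acan.

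Checked against the label of the cells, the markers were mixed in both groups. Of the listed markers, the notochord gene Tbxt (sought also as T), Shh, Foxf2, Car3, Car12 and Ovos2 had no row under those names. Acan and Ncam1 were well detected, at 71.0 and 52.9 FPKM in the rShh group and 6.80 and 44.3 FPKM in the Control group. Krt18 was near 0, and Col2a1, the collagen of the disc core, had 17, 4 and 0 counts in the rShh libraries and 97, 87 and 76 in the Control libraries. Col1a1, the main collagen of fibrous tissue, stood at 2368 ± 22.2 FPKM in the rShh group and 5049 ± 181 FPKM in the Control group. The fibroblast markers Thy1 and Dcn were higher in the rShh group, with Thy1 at 491 ± 9.12 FPKM against 41.0 ± 3.39 FPKM in the Control group and Dcn at 7.51 ± 0.934 FPKM against 0.246 ± 0.111 FPKM. The annulus and tendon gene Scx was lower, at 38.5 ± 0.600 FPKM against 115 ± 22.9 FPKM in the Control group. Mkx was higher, at 13.6 ± 0.779 FPKM against 10.7 ± 0.463 FPKM in the Control group (edgeR adjusted p = 3.46e-06 for Scx and 0.00759 for Mkx).

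Of the list of 9 annulus, tendon and fibroblast genes, 7 were tested, with 5 higher, 2 lower and a summed level of 17051 to 17870 CPM in the rShh libraries and 33736 to 36847 CPM in the Control libraries. Col1a1 alone made up 16030 to 16846 CPM of it in the rShh libraries and 33467 to 36529 CPM in the Control libraries. The rest of the list summed to 1022 to 1051 CPM in the rShh libraries and 269 to 334 CPM in the Control libraries. Thy1 carried most of this rShh sum, at 761 to 786 CPM against 61.0 to 71.5 CPM in the Control libraries. The 2 lower genes were Col1a1 and Scx. Among 11 chondrocyte genes 7 were tested, with 2 higher and 4 lower, and the sums were 164 to 180.2 CPM in the rShh libraries and 124 to 136 CPM in the Control libraries. Hapln1, a link protein of cartilage matrix, carried most of both sums, and without it they were 8.10 to 8.57 CPM in the rShh libraries and 14.0 to 15.4 CPM in the Control libraries. All 4 pericyte genes were higher, as were 31.5% of all genes tested, with sums of at least 574 CPM in each rShh library and at most 268 CPM in each Control library. Cspg4 carried most of both sums, at 499 to 504 CPM in the rShh libraries and 227 to 249 CPM in the Control libraries. Without Cspg4 the sums were 71.6 to 74.9 CPM in the rShh libraries and 17.9 to 22.6 CPM in the Control libraries. Notch3 lost its call without rShh replicate 1 or 3 (edgeR adjusted p = 0.0703 and 0.0512). The 4 osteoblast genes, of which 2 were tested and both were higher, summed to 136 to 141 CPM in the rShh libraries and 17.5 to 17.9 CPM in the Control libraries. Ibsp made up most of the difference, at 109 to 114 CPM in the rShh libraries and 0.725 to 1.97 CPM in the Control libraries. Without Ibsp the sums were 25.9 to 27.0 CPM in the rShh libraries and 15.9 to 16.8 CPM in the Control libraries. Sp7 and Bglap had too few counts to be tested. Of 6 glial and neuronal genes 3 were tested and 2, Tubb3 and S100b, were lower, with sums of 82.3 to 87.2 CPM in the rShh libraries and 346 to 383 CPM in the Control libraries. The part of these lists in the members' changes was not tested.

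Markers of blood, vessel, muscle and fat cells were low or mixed. The 12 leukocyte genes, 4 tested and 1 higher, summed to 13.7 to 16.4 CPM in the rShh libraries and 11.0 to 14.1 CPM in the Control libraries, most of it from Cd14. Ptprc, the pan-leukocyte marker, had no row to analyse here. The 7 endothelial genes, 2 tested and 1 lower, summed to 1.89 to 2.22 CPM in the rShh libraries and 4.86 to 7.02 CPM in the Control libraries, most of it from Tek. Without Tek the sums were 0.107 to 0.403 CPM in the rShh libraries and 0 to 0.530 CPM in the Control libraries. The 6 skeletal muscle genes, 3 tested and 1 higher, summed to 85.8 to 108 CPM in the rShh libraries and 57.1 to 93.4 CPM in the Control libraries, most of it from Acta1. The erythroid and adipocyte lists had no gene with enough counts to test and summed to under 1 CPM in every library.

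For each tested member, the genes whose log2 CPM followed its own most closely over the 6 samples were sought, and those of 4 members are named. For Krt8 these were Ripor3, Hs6st1 and Ltbp4 (Pearson r = 0.9996, 0.9994 and 0.9994). For Cd24 they were Cxcl6, Cox10 and Serpini1 (r = 0.9993, 0.9992 and 0.9988). For Lgals3 they were Ddx54, Ercc2 and Ppp1r15a (r = 0.9998 for the first and second and 0.9997 for the last). For Glul they were Cxcl16, Pla2g7 and Nampt, with r of 0.99996, 0.9999 and 0.9997. The 6 points share the split into 2 groups, and r was above 0.99 for 356 genes with Krt8, 204 with Cd24, 384 with Lgals3, 674 with Glul, 220 with A2m and 11 with Pax1.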

How the data were processed

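The authors deposited a gene table and an isoform table with whole-number counts, not normalized, and FPKM values, which the file headers give per sample. The submitters' processing notes name HISAT2 2.0.4 and StringTie 1.3.4d, besides cutadapt 1.9, edgeR and DESeq2, without roles. The library kit marked strand, per the labels' protocols. The genome build and whether counting used strand: not given in the sources used here. Members were found by gene name, and none overlapped another gene row. The members and lists were chosen with earlier results of these data known.

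Deposited counts were tested with edgeR 4.0.16 in R 4.3.3 (filterByExpr with a minimum count of 10, TMM, glmQLFit and glmQLFTest, two-sided, group as the only term). Adjusted p-values are Benjamini-Hochberg values over all genes tested. SE is the log2 change divided by the square root of F. CPM is TMM-scaled. Isoforms were tested with limma 3.58.1 on log2(FPKM + 1) above a mean of 1 FPKM. That scale shrinks the change of isoforms with low values. The alternatives were DESeq2 1.42.0, other scalings and filters, leaving out each sample, a replicate block and thinned counts. The tests were checked on simulated data. Counts of replicates differed beyond sampling noise (chi-square 10.5 to 50.5 per degree of freedom), so none looked like the same library sequenced again. Whether they came from separate cultures was not tested. The planned ratios between Krt8, Krt18 and Krt19 had no value in every sample and were not computed. Floors cover counting error only. The genes named are all members, up to 3 genes with the smallest p in a list and those with a defining role in it, and the 3 closest genes by Pearson r (log2 of CPM plus 0.5) for Krt8, Cd24, Lgals3 and Glul.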

Additional observations from a re-analysis of the deposited data

How the results depend on the processing

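The 6 tested members kept their direction and stayed below an adjusted p of 0.05 in every alternative that gave them a value. In the count-based fits the log2 change lay between -2.63 and -2.49 for Krt8, -1.79 and -1.67 for Cd24, -0.91 and -0.83 for Lgals3, 1.03 and 1.05 for Glul, -5.23 and -4.51 for A2m and -0.43 and -0.33 for Pax1, and these ends came from fits without 1 sample. The highest adjusted p over all alternatives was 0.00632, for Pax1 without rShh replicate 2. Limma on log2(FPKM + 1) gave -1.75 for Krt8, where the added constant shrinks low values, and A2m fell under its minimum of 1 FPKM. The count of changed genes was 8914 in the reported fit and 7838 to 9252 without 1 sample. Thinning all libraries to the smallest, chosen after seeing the data, gave 8847. Same-numbered samples did not deviate together (r of -0.06 to -0.02), so no pairing by number was seen. A pairing that is weak or limited to few genes would not show in this r. With the replicate block 8440 genes and the same 6 members passed. Among list genes, Lgals8, Got1, Col9a2, Col10a1, Notch3 and Slc12a2 lost their call without at least 1 of the samples, Col9a2 and Got1 also with the replicate block, and Slc12a2 also with limma without a filter. Krt18 had counts of 0 to 9, which allow no comparison at this depth. Why they were so low was not tested.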
